A study of Mus musculus with 24 samples.

Results

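The E2F transcription factors and their dimerisation partners were read out in C2C12 myotubes, the fused and contractile form of a mouse skeletal muscle cell line. The family was taken by gene symbol, as E2f1 to E2f8 with the partner genes Tfdp1 and Tfdp2. Earlier results of these data were known when it was chosen. All 10 genes were found among the 55487 genes listed, and all 10 were among the 14541 genes tested, those that reached 10 normalized counts in 6 or more libraries. Myoblasts of this wild-type line were differentiated under 5 % O2 and used at day 5. The myotubes then spent 2 h under 5 % or 1 % O2. Resting cultures are named 5 % CTRL and 1 % CTRL, and cultures that then received electrical stimulation are named 5 % STIM and 1 % STIM. Each of the 4 groups held 6 libraries of bulk mRNA, made from biological replicates of 1 cell line. The question here is which activator or repressor of the family moved with the S-phase genes under 1 % O2.

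E2F proteins bind the promoters of genes needed to enter and complete S phase. E2F1, E2F2 and E2F3 are known as activators, which the retinoblastoma protein holds in check until cyclin-dependent kinases phosphorylate it. E2F4 and E2F5 act mostly as repressors together with the pocket proteins p107 and p130, E2F6 represses through Polycomb-type complexes, and the atypical E2F7 and E2F8 repress without a pocket protein or a DP partner. DP1 and DP2, encoded by Tfdp1 and Tfdp2, pair with E2F1 to E2F6 for stable DNA binding. Myoblasts leave the cell cycle as they differentiate, and E2F target genes are turned down in that step. Several E2f genes carry E2F sites in their own promoters.

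Promoter sequences are shown here because the members differed in the direction in which they moved, and because the E2F word can be read directly in them. The sequences come from RefSeq on GRCm38.p6 and run from 250 bases before to 50 after a start site. They were searched on both strands for 4 words of 8 letters (TTTCCCGC, TTTCGCGC, TTTGCCGC and TTTGGCGC), and each window printed held 1 match. Of the 10 members, 8 had an entry, and E2f4 and E2f5 were not in the table. The word was found for E2f2, E2f3, E2f7 and Tfdp1. In the sequences below, all written 5′ to 3′ on the strand of the gene, capitals mark the word or its reverse complement. The E2f2 window is chr4:136172024-136172323 (+), E2f3 is chr13:29986014-29986313 (−), E2f7 is chr10:110745189-110745488 (+) and Tfdp1 is chr8:13338501-13338800 (+).
E2f2: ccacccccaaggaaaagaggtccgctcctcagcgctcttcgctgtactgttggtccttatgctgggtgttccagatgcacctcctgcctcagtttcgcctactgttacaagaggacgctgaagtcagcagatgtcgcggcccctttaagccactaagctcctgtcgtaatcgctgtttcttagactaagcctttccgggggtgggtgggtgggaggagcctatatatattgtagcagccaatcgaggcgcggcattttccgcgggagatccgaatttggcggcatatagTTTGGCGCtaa
E2f3: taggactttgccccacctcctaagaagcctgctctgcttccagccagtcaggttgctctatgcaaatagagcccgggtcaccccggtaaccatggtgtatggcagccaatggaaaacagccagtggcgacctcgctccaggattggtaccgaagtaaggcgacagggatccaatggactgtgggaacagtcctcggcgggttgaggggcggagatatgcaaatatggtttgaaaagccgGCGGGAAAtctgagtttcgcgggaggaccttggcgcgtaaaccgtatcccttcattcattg
E2f7: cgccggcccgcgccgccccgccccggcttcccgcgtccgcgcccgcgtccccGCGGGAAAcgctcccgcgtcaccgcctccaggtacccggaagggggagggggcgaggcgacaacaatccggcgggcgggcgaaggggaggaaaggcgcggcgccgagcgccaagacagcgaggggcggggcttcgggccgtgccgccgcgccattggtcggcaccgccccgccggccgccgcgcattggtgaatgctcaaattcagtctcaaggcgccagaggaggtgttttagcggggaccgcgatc
Tfdp1: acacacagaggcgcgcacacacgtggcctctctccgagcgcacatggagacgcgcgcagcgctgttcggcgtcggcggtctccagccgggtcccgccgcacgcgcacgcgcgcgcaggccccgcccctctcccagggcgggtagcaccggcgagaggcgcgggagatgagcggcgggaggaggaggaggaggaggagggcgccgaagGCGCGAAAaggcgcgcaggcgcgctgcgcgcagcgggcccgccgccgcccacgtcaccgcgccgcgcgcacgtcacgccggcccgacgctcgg

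In E2f2 the word began at base 40, counting the start site as the first base. It began 11 bases before the start site in E2f3, 198 bases before it in E2f7 and 43 bases before it in Tfdp1. The entry for E2f1 starts 466 bases inside the gene as annotated in GENCODE M21, and those for Tfdp2 at least 62430 bases inside it, so these windows are not the 5′ ends of the annotated genes and are not printed. The E2f2 start used here lies 120 bases before the start of the gene in GENCODE M21, so the window printed is upstream of the annotated gene. E2f2 and E2f3 each have a second entry, 8388 and 1672 bases inside the gene, and neither holds an E2F word. A gene is counted in the shares given next if any of its windows holds the word. The window of E2f8 holds none of the 4 words. The window of E2f6 holds none either. The CHR word TTTGAA, the element of many G2 and mitosis genes, was found for 3 of the 8 members. It begins 20 bases before the start site in E2f8, 23 bases before it in the E2f3 window printed, and 31 bases before it in a second E2f2 window. Over all 27025 genes with an entry, 2.61 % hold an E2F word and 20.2 % the CHR word, and over the tested genes with an entry the shares are 4.56 % and 14.3 %. Among the 44 S-phase target genes with an entry 43.2 % hold an E2F word, and among the 24 G2 and mitosis genes with an entry 4.17 % hold an E2F word and 79.2 % the CHR word. The core word of hypoxia-inducible factors, ACGTG or GCGTG, is in 46.7 % of all promoters, in 66.8 % of those of tested genes and in those of 4 of the 8 members. For E2f8 and Tfdp1 it lies in the window at the annotated start, while for E2f1 and E2f3 it lies only in windows that start 466 and 1672 bases inside the gene, and the E2f3 window printed holds none. A match is a description of letters and not a measured binding site.

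Libraries held between 26541858 and 28173745 reads, and since all size factors were close to 1, a normalized count is close to a number of reads. All 14 myotube markers were detected in each group, with summed normalized counts whose medians were 590291 (5 % CTRL), 533982 (1 % CTRL), 555222 (5 % STIM) and 515006 (1 % STIM). Replicate 1 of 1 % CTRL stood apart from its group. Its log2 values rose with exon length by 0.31 per 10-fold of length relative to the mean library, against −0.12 to −0.04 in the other 5 libraries of the group. In replicate 3 of 1 % STIM this slope was 0.18. Markers of dividing cells (Mki67, Top2a, Ccna2, Ccnb1 and Cdk1) were present in every group. Their summed normalized count had a median of 3862 in 5 % CTRL (3619.6 to 4169), 4496 in 1 % CTRL (4189.7 to 6479.8, the highest in replicate 1), 4519 in 5 % STIM (4092 to 4914) and 4679.5 in 1 % STIM (4274 to 5520.4). The markers did not move alike. From 5 % CTRL to 1 % CTRL, mean Top2a went from 1264 to 2130, Ccna2 from 573 to 701 and Cdk1 from 352 to 517. Mean Mki67 went from 1250 to 1239 and Ccnb1 from 428 to 304. The means and medians in 1 % CTRL lay apart for some markers: median Mki67 went from 1243 to 1096 and median Top2a from 1264 to 1966. In bulk RNA, fewer cells of a type and less RNA per cell cannot be told apart, and this holds for each value that follows.

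Per kilobase of annotated exon, E2f2 was the most abundant E2f transcript in resting myotubes at 5 % O2. Its level was 1246 ± 32.4 normalized counts per kb (SD, n = 6), followed by E2f4 with 715 ± 28.1. E2f8 (279 ± 18.05), E2f6 (227 ± 9.69), E2f3 (160.1 ± 12.0), E2f5 (129 ± 14.4) and E2f1 (117 ± 7.81) came below, and E2f7 was lowest with 28.8 ± 1.57. E2f5 and E2f1 were neighbours in this order that did not differ beyond their spread. Tfdp1, at 906 ± 20.1 per kb, stood 16.03 ± 0.72 times as high as Tfdp2 (56.6 ± 1.81). The exon lengths join all annotated exons of a gene, 14029 bases for Tfdp2 and 9009 for E2f7, so per-kb levels of genes with many alternative exons are understated.

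Under 1 % O2 the make-up of this pool changed. The sum of E2f1 to E2f8 per kb was 2901.5 ± 50.9 (5 % CTRL), 2255 ± 22.7 (1 % CTRL), 2492 ± 48.8 (5 % STIM) and 2030.2 ± 24.3 (1 % STIM), and the libraries of these 4 groups did not overlap. E2f2 supplied 42.9 ± 0.57 % of the sum in 5 % CTRL and 26.7 ± 1.19 % in 1 % CTRL. E2f1 supplied 4.02 ± 0.29 % and 11.02 ± 0.89 %. The share of the 3 activators together was 52.5 ± 0.67 % in 5 % CTRL and 46.1 ± 0.67 % in 1 % CTRL, while that of E2f4 and E2f5 was 29.1 ± 0.74 % and 33.4 ± 0.86 %. E2f7 and E2f8 together supplied 10.6 ± 0.49 % and 10.8 ± 0.83 %, with overlapping libraries. In 1 % CTRL E2f4 (637 ± 15.98 per kb) and E2f2 (602 ± 29.1) led the order with overlapping libraries, and E2f1 (248 ± 20.1) came next, at or above every library of E2f6 (217 ± 8.99) and E2f8 (205 ± 12.8). In 1 % STIM E2f4 (549.9 ± 20.4) was above E2f2 (484 ± 18.3) in all libraries. Per kb, E2f2 stood at 10.7 ± 0.89 times E2f1 in 5 % CTRL and at 2.44 ± 0.27 times in 1 % CTRL.

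**Figure D1:**
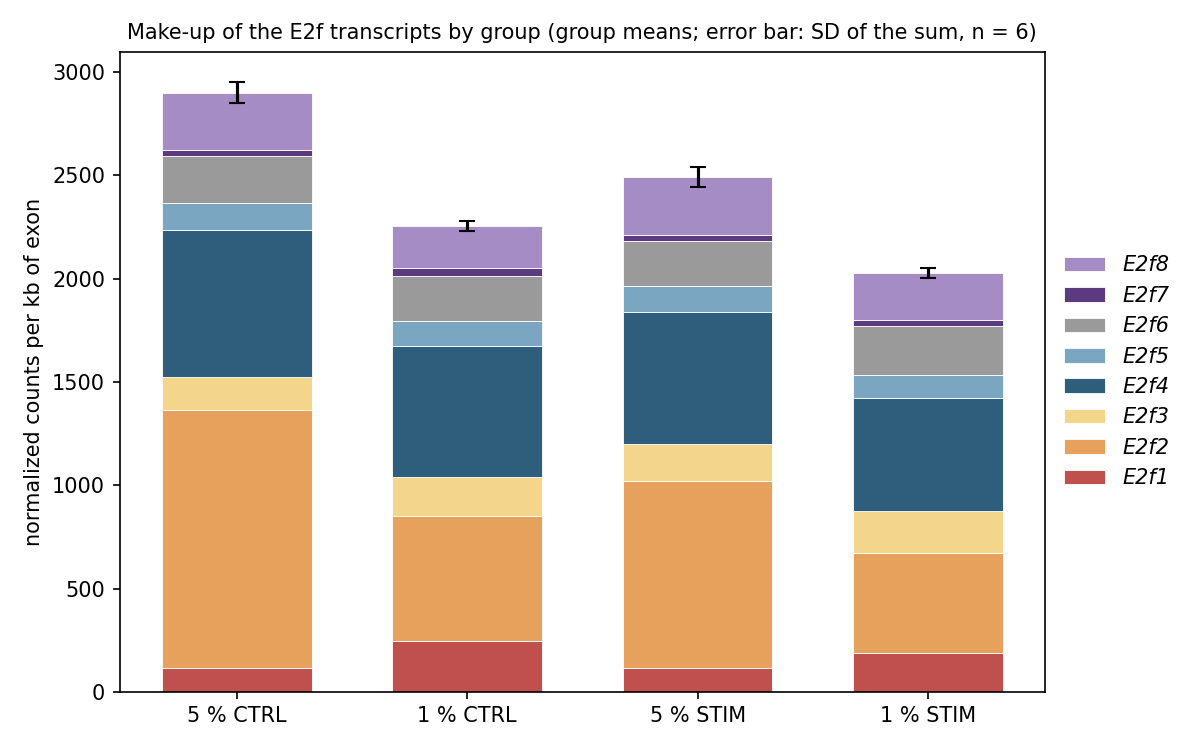
Stacked bars give the mean level of each E2f gene in normalized counts per kb of exon (y axis) in the 4 groups (x axis), and the error bar is the SD of the sum over 6 libraries. The E2f2 segment shrinks from 42.9 % of the bar in 5 % CTRL to 26.7 % in 1 % CTRL, and the E2f1 segment grows from 4.02 % to 11.02 %.

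Between 1 % CTRL and 5 % CTRL, 5 of the 10 members rose (E2f1, E2f3, E2f7, Tfdp1 and Tfdp2) and 3 fell (E2f2, E2f4 and E2f8). Changes of expression were common in this comparison: of all genes tested, 29.4 % were called higher and 30.5 % lower at an adjusted p under 0.05 in limma. A count over 10 genes says little beside that background, and the results that follow are those of single genes. The groups did not overlap for E2f1, E2f2, E2f4, E2f8, Tfdp1 and Tfdp2, and they did not overlap for 38.2 % of all genes tested. The median log2 fold change was 0.09 over the members and 0.0015 over all genes. Fold changes are on the log2(normalized count + 1) scale throughout.

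Among the activators, E2f1 (chr2:154559407-154569892, minus strand, GRCm38) was the member that rose most under 1 % O2. Its normalized counts ran from 346 to 401 with a median of 359 in 5 % CTRL, and from 712 to 903 with a median of 774 in 1 % CTRL. In 5 % STIM they ran from 325 to 408 (median 358) and in 1 % STIM from 525 to 709.7 (median 579.7). Every library under 1 % O2 was above every library under 5 % O2, and the highest value in 1 % STIM was just below the lowest in 1 % CTRL, 711.9. In resting myotubes E2f1 rose 2.12-fold, a log2 fold change of 1.09 (SE 0.07, adjusted p = 5.61e-16 from limma). Without replicate 1 of 1 % CTRL, which had the highest value of 903, it was 1.05 (adjusted p = 1.51e-16 from limma). In stimulated myotubes the log2 fold change of 1 % STIM against 5 % STIM was 0.72 (SE 0.07, adjusted p = 2.18e-11).

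Stimulation gave E2f1 a log2 fold change of −0.03 at 5 % O2 (SE 0.07, adjusted p = 0.828), with a 95 % interval of −0.16 to 0.10. At 1 % O2 stimulation lowered it, with a log2 fold change of −0.39 (SE 0.07, adjusted p = 2.25e-05). The difference between these responses, tested as the interaction of O2 and stimulation, was −0.37 (SE 0.09, adjusted p = 0.00821 from limma). Without replicate 1 of 1 % CTRL the interaction was −0.32 (adjusted p = 0.0110).

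E2f2 (chr4:136172394-136196057, plus strand), also an activator by class, moved the opposite way. Its normalized counts ran from 5989 to 6402 (median 6027) in 5 % CTRL and from 2717 to 3131 (median 2944) in 1 % CTRL. They ran from 4122 to 4566 (median 4544) in 5 % STIM and from 2275 to 2495 (median 2330.2) in 1 % STIM. The 4 groups occupied 4 separate ranges, in the order 5 % CTRL, 5 % STIM, 1 % CTRL and 1 % STIM from high to low. At 1 % O2 the level in resting myotubes was 0.48 times that at 5 % O2, a log2 fold change of −1.05 (SE 0.03, adjusted p = 1.37e-23 from limma). Stimulated myotubes showed −0.91 between 1 % and 5 % O2 (SE 0.03, adjusted p = 1.01e-21). Stimulation alone also lowered E2f2, with a log2 fold change of −0.46 at 5 % O2 (SE 0.03, adjusted p = 7.48e-13) and −0.31 at 1 % O2 (SE 0.03, adjusted p = 4.49e-09). The interaction was 0.14 (SE 0.05, adjusted p = 0.0431). Leaving out any 1 of 13 libraries took this call away, with adjusted p between 0.0509 and 0.0855 and log2 values between 0.12 and 0.15. These were replicates 1 to 5 of 5 % CTRL, 1, 2 and 5 of 1 % CTRL, 5 and 6 of 5 % STIM, and 1, 4 and 5 of 1 % STIM.

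E2f3 (chr13:29906575-29986063, minus strand) changed less. This gene has 2 promoters, and the counts per gene do not separate the E2F3a and E2F3b transcripts. Normalized counts ran from 814 to 987.4 (median 855) in 5 % CTRL, from 986.9 to 1057 (median 1029) in 1 % CTRL, from 943 to 1029 (median 959) in 5 % STIM and from 1047 to 1125 (median 1084) in 1 % STIM. The resting groups met at the highest library of 5 % CTRL and the lowest of 1 % CTRL, and the stimulated groups did not overlap each other. The log2 fold change was 0.25 in resting (SE 0.04, adjusted p = 2.43e-06) and 0.15 in stimulated myotubes (SE 0.04, adjusted p = 0.00137), both from limma. Stimulation raised E2f3 by 0.17 at 5 % O2 (SE 0.04, adjusted p = 0.00183), with overlapping groups, and gave 0.08 at 1 % O2 (SE 0.04, adjusted p = 0.182).

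**Figure D2:**
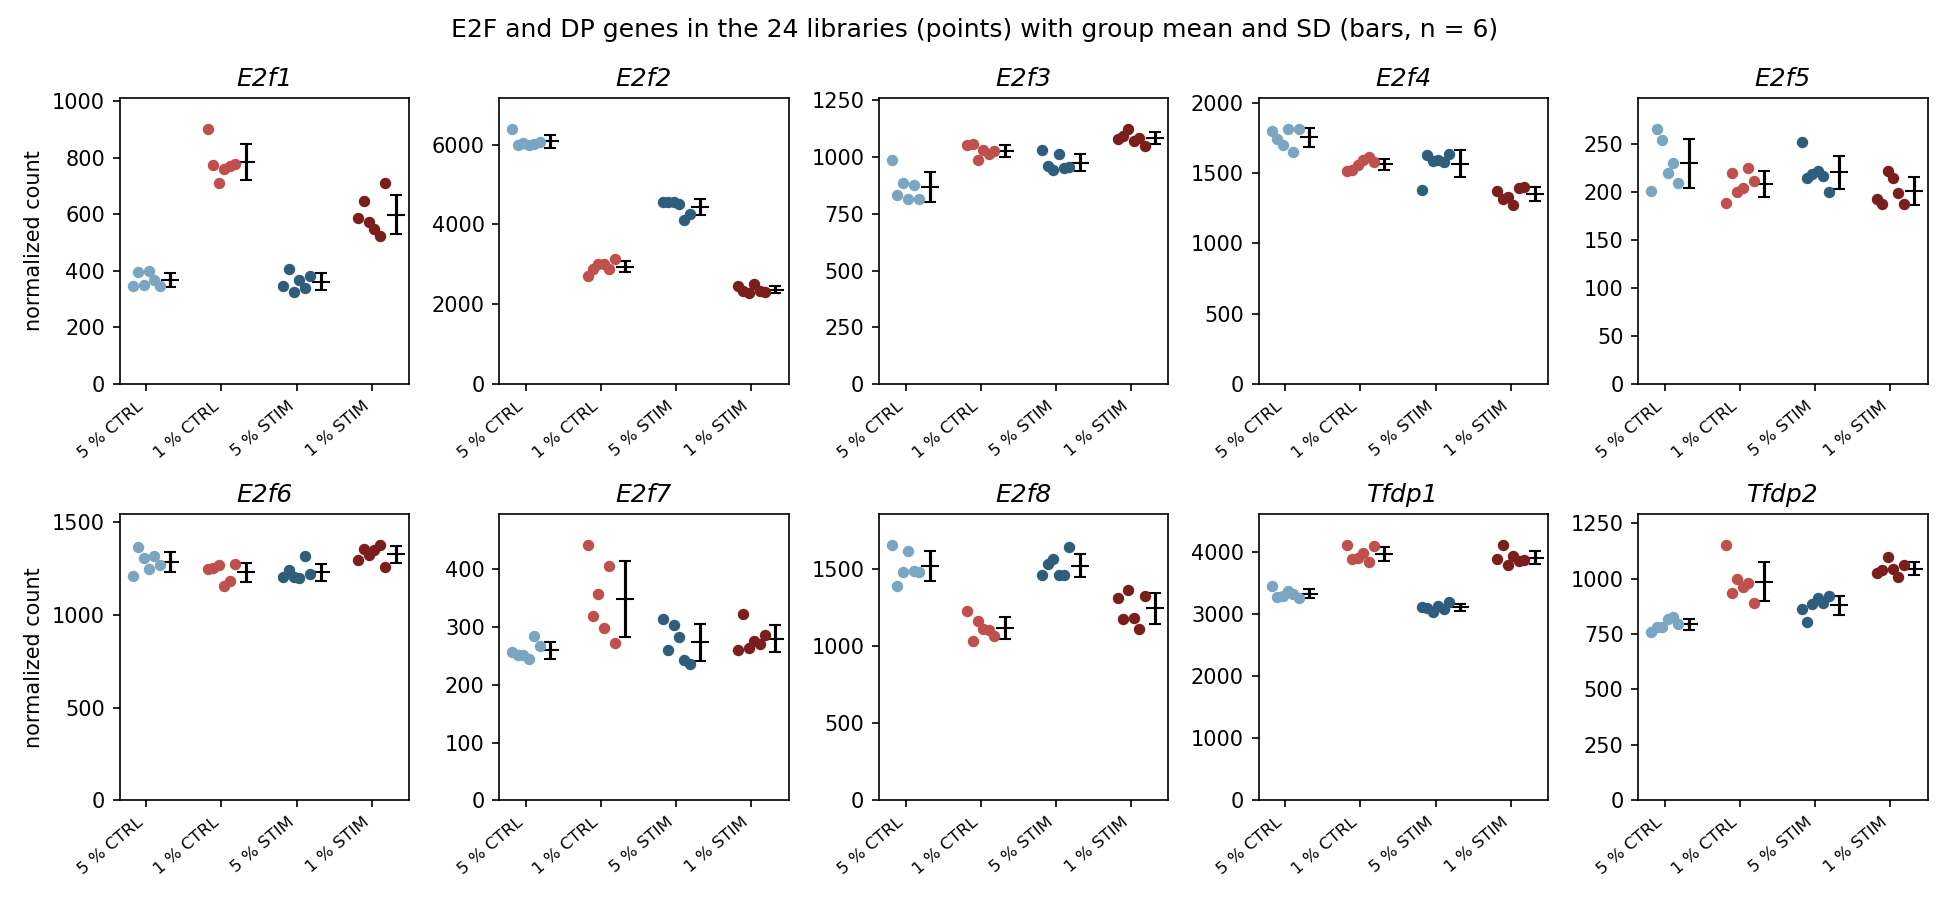
Each panel shows 1 gene, with the normalized count (y axis, from 0) of the 24 libraries as points by group (x axis) and the group mean and SD (n = 6) as a bar beside them. E2f1 is at 525 or above in every library under 1 % O2 and at 408 or below in every library under 5 % O2, while the median of E2f2 is 6027 in 5 % CTRL and 2944 in 1 % CTRL.

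Of the pocket-protein-dependent repressors, E2f4 (chr8:105297663-105305370, plus strand) was lower in each of the 4 comparisons of pairs of groups. Its normalized counts ran from 1648 to 1815 (median 1771) in 5 % CTRL, from 1515 to 1617 (median 1565) in 1 % CTRL, from 1376 to 1637 (median 1589) in 5 % STIM and from 1275 to 1402 (median 1351) in 1 % STIM. 5 % CTRL was above both 1 % CTRL and 5 % STIM in all libraries, and 5 % STIM overlapped both groups under 1 % O2. The log2 fold change for O2 was −0.17 in resting (SE 0.04, adjusted p = 2.84e-04) and −0.21 in stimulated myotubes (SE 0.04, adjusted p = 9.09e-06). For stimulation it was −0.16 at 5 % O2 (SE 0.04, adjusted p = 0.00142) and −0.21 at 1 % O2 (SE 0.04, adjusted p = 4.56e-05). The interaction was −0.05 (95 % interval −0.15 to 0.05, adjusted p = 0.613).

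E2f5 (chr3:14578641-14606309, plus strand), the other member of this class, was the least expressed of the typical E2f genes by normalized count. Its normalized counts ran from 201 to 266 (median 225) in 5 % CTRL, from 189 to 226 (median 208) in 1 % CTRL, from 200.2 to 252 (median 218) in 5 % STIM and from 188 to 222 (median 196) in 1 % STIM. The groups overlapped in every comparison. For 1 % CTRL against 5 % CTRL the log2 fold change was −0.14 (SE 0.07, 95 % interval −0.28 to 0.003, adjusted p = 0.0990), and without replicate 1 of 5 % CTRL it was −0.18 and passed the test (adjusted p = 0.0404).

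E2f6 (chr12:16810963-16839742, plus strand), the repressor of the Polycomb-type complexes, gave −0.06 for O2 in resting myotubes (SE 0.04, adjusted p = 0.133) and 0.11 in stimulated ones (SE 0.04, adjusted p = 0.0104). Its normalized counts ran from 1212 to 1365 (median 1287) in 5 % CTRL, from 1154 to 1277 (median 1251) in 1 % CTRL, from 1197 to 1319 (median 1212) in 5 % STIM and from 1258 to 1378 (median 1338) in 1 % STIM. The groups overlapped in each comparison of 2 groups. The interaction of 0.17 (SE 0.05, adjusted p = 0.0246) was called, and it lost the call without replicate 2 of 5 % CTRL or replicate 4 of 1 % CTRL (adjusted p 0.0509 to 0.0524). For stimulation at 1 % O2 the log2 fold change was 0.11 (adjusted p = 0.0264), which was lost without replicates 4 or 5 of 1 % CTRL or replicates 2, 4 or 5 of 1 % STIM, each left out singly (adjusted p 0.0514 to 0.0848, log2 0.09 to 0.10).

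The atypical repressors moved in opposite directions under 1 % O2 in resting myotubes. E2f8 (chr7:48866429-48881596, minus strand) had normalized counts from 1390.3 to 1656 (median 1484) in 5 % CTRL and from 1033 to 1228 (median 1107) in 1 % CTRL. In 5 % STIM it ran from 1461 to 1645 (median 1497) and in 1 % STIM from 1113 to 1362 (median 1247). Every library under 1 % O2 was below every library under 5 % O2. The level in 1 % CTRL was 0.74 times that in 5 % CTRL, a log2 fold change of −0.44 (SE 0.05, adjusted p = 1.71e-09 from limma), and in stimulated myotubes the log2 fold change was −0.29 (SE 0.05, adjusted p = 5.03e-06). Stimulation gave 0.0045 at 5 % O2 (SE 0.05, adjusted p = 0.964) and raised E2f8 by 0.15 at 1 % O2 (SE 0.05, adjusted p = 0.0208). The last call was lost when replicate 2 or 6 of 1 % CTRL or replicate 1, 3 or 6 of 1 % STIM was left out (adjusted p 0.0505 to 0.0696, log2 0.13 to 0.14). An annotated transcript on the opposite strand, Gm2788, overlaps 11.2 % of the E2f8 exon bases. Whether reads were counted by strand is not stated in the sources used here, and if they were not, part of the E2f8 count could belong to it.

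E2f7 (chr10:110745439-110787384, plus strand) ran from 246 to 284 (median 255) in 5 % CTRL and from 272 to 443 (median 338) in 1 % CTRL, a wider range than in the other groups. It ran from 236 to 315 (median 272) in 5 % STIM and from 260.1 to 323 (median 273) in 1 % STIM. 1 % CTRL overlapped 5 % CTRL at its lower end, and its highest value came from replicate 1. That library had the highest sum of dividing-cell markers and the steepest rise with exon length (0.31 per 10-fold of length). The joined exons of E2f7 are 9009 bases long. The log2 fold change in resting myotubes was 0.41 (SE 0.09, adjusted p = 2.49e-04 from limma), or 0.33 without that replicate (adjusted p = 7.21e-04). The part of the dividing-cell markers in the rise of E2f7 was not tested. In stimulated myotubes the log2 fold change of E2f7 was 0.04 (95 % interval −0.14 to 0.22, adjusted p = 0.735). Stimulation lowered E2f7 at 1 % O2, with a log2 fold change of −0.30 (SE 0.09, adjusted p = 0.0147), and gave 0.07 at 5 % O2 (SE 0.09, adjusted p = 0.656). The interaction of −0.37 (SE 0.13, adjusted p = 0.0598) missed the threshold, and it passed when replicate 4 or 6 of 1 % CTRL, 5 or 6 of 5 % STIM or 2 of 1 % STIM was left out (log2 −0.43 to −0.40, adjusted p 0.0157 to 0.0435). Per kb, E2f8 stood at 9.70 ± 0.90 times E2f7 in 5 % CTRL and at 5.42 ± 0.80 times in 1 % CTRL.

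Both dimerisation partners rose under 1 % O2. Tfdp1 (chr8:13338751-13378448, plus strand) ran from 3253 to 3453 (median 3303) in 5 % CTRL, from 3829.5 to 4110.4 (median 3940) in 1 % CTRL, from 3037 to 3194 (median 3103) in 5 % STIM and from 3792 to 4101 (median 3875) in 1 % STIM. All libraries under 1 % O2 were above all libraries under 5 % O2. The log2 fold change was 0.26 in resting (SE 0.03, adjusted p = 3.14e-10) and 0.33 in stimulated myotubes (SE 0.03, adjusted p = 8.46e-13). Stimulation lowered Tfdp1 slightly at 5 % O2, with a log2 fold change of −0.10 (SE 0.03, adjusted p = 0.00630, or 0.0576 after all libraries were scaled to 1 common total), and gave −0.02 at 1 % O2 (adjusted p = 0.605). Of the 75-base words of the Tfdp1 transcripts 11.5 % also occur in Gm7390, so its count could include or lose reads of that gene.

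Tfdp2 (chr9:96196275-96323646, plus strand) ran from 759 to 828 (median 788) in 5 % CTRL, from 891 to 1153 (median 971) in 1 % CTRL, from 805 to 920.5 (median 888) in 5 % STIM and from 1009.9 to 1097 (median 1042) in 1 % STIM. In both the resting and the stimulated myotubes the 1 % O2 libraries were above the 5 % O2 libraries. The log2 fold change was 0.31 in resting (SE 0.05, adjusted p = 3.49e-07, and 0.26 without replicate 1 of 1 % CTRL, which had the highest value) and 0.25 in stimulated myotubes (SE 0.05, adjusted p = 1.43e-05). Stimulation raised it by 0.15 at 5 % O2 (SE 0.05, adjusted p = 0.0164). At 1 % O2 stimulation gave 0.09 (SE 0.05, adjusted p = 0.175), and without replicate 1 of 1 % CTRL this was 0.13 and passed the test (adjusted p = 0.0109).

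**Figure D3:**
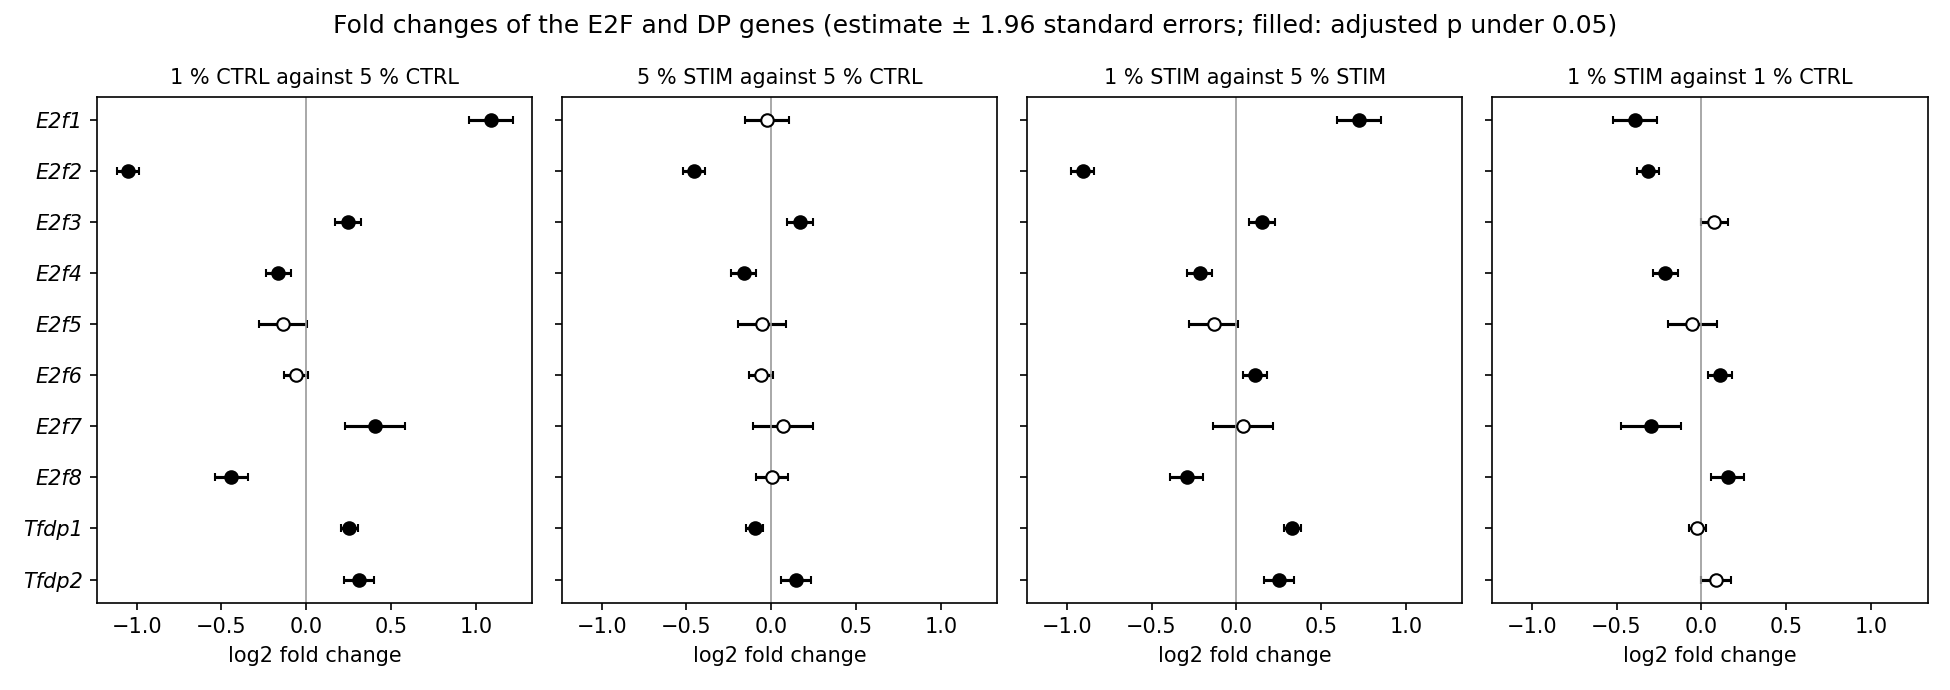
Points give the log2 fold change (x axis) of each gene (y axis) in the 4 comparisons of 2 groups, with bars for the 95 % interval, and filled points passed an adjusted p under 0.05 in limma. E2f1 lies at 1.09 and E2f2 at −1.05 in the first panel, and in the last panel, stimulation at 1 % O2, both lie below 0 at −0.39 and −0.31.

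In the other comparisons the members called are given beside the share of all genes called. Stimulation at 5 % O2 raised 2 of 10 members and lowered 3, where 9.44 % of all genes were called higher and 12 % lower. Between 1 % STIM and 5 % STIM 5 rose and 3 fell, where 29 % of genes were higher and 28.4 % lower. Stimulation at 1 % O2 raised 2 and lowered 4, where 11.5 % were higher and 10.8 % lower. The interaction was called higher for E2f2 and E2f6 and lower for E2f1, or for 1 member in all without replicate 2 of 5 % CTRL, where 5.88 % of genes were called higher and 5.43 % lower. Some comparisons share a group (5 % CTRL, 1 % CTRL, 5 % STIM and 1 % STIM each serve in 2 comparisons of pairs), so their values are not independent.

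The genes downstream of the family were read from a list of 57 S-phase genes known as E2F targets. The rise of S-phase genes at 1 % O2 was known when the list was written, so the list gives the setting for the members and not independent evidence. In 1 % CTRL against 5 % CTRL 29.4 % of all genes were called higher and 30.5 % lower. All 57 targets passed the test and were higher, with a median log2 fold change of 1.10 and a range of 0.35 to 3.06. Their summed normalized count had a median of 26447 at 5 % O2 and 52339 at 1 % O2 in resting myotubes, and of 25882 and 44838 in stimulated ones. Cdc6, which loads the replicative helicase at origins, went up from 75.7 ± 13.3 normalized counts to 632 ± 79.0, a log2 fold change of 3.06 (SE 0.10). Chaf1b, a subunit of the chromatin assembly factor CAF-1, rose from 56.7 ± 10.4 to 315 ± 42.4 (2.46, SE 0.11), and Uhrf1, which maintains DNA methylation, from 384 ± 48.4 to 2104 ± 250.4 (2.45, SE 0.09).

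In the other comparisons the targets were again higher under 1 % O2 and lower with stimulation at 1 % O2. Between 1 % STIM and 5 % STIM 56 of 57 rose, with a median of 0.87, where 29 % of all genes were higher and 28.4 % lower. The exception, named after its value was seen, was Rpa3 (−0.01, SE 0.13, adjusted p = 0.952). Stimulation at 1 % O2 lowered 42 of 57 and raised 0 (median −0.27), where 10.8 % of all genes were called lower and 11.5 % higher. Without replicate 1 of 1 % CTRL, stimulation at 1 % O2 lowered 36. The largest falls were those of Cdc6 (−0.71, SE 0.10), Ccne2, which encodes cyclin E2 (−0.69, SE 0.09), and Uhrf1 (−0.54, SE 0.09). Stimulation at 5 % O2 raised 0 and lowered 3, with a median of −0.04, where 12 % of all genes were called lower. The 3 were Cdca7 (−0.34, SE 0.08), Mcm2 of the replicative helicase (−0.20, SE 0.06) and Msh6 of mismatch repair (−0.18, SE 0.05). The number called in that comparison was 5 without replicate 2 of 5 % CTRL, 6 (1 of them higher) without replicate 1 of 1 % CTRL and 8 without replicate 1 of 5 % STIM. The interaction was lower for 12 targets and higher for 0, where 5.43 % of all genes were called lower and 5.88 % higher. The 12 were led by the exonuclease gene Exo1 (−0.63, SE 0.16), Mcm10 (−0.58, SE 0.16) and the DNA ligase gene Lig1 (−0.57, SE 0.11). Without replicate 6 of 1 % STIM 21 were called.

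The 28 genes of G2 and mitosis did not move as a block. In 1 % CTRL against 5 % CTRL 8 were higher, 9 lower and 11 did not pass, with a median of −0.07. These counts are near the shares of all genes tested, 29.4 % higher and 30.5 % lower. Without replicate 1 of 1 % CTRL 8 were higher and 11 lower with a median of −0.14. Top2a, the topoisomerase of chromosome condensation (0.74, SE 0.09), and the kinase genes Bub1 (0.72, SE 0.09) and Aurkb (0.65, SE 0.12) rose most. Ccnb1, which encodes cyclin B1, went from 428 ± 27.3 to 304 ± 42.2 normalized counts (−0.50, SE 0.08) and the centromeric histone gene Cenpa from 146 ± 12.2 to 101 ± 13.8 (−0.54, SE 0.10). Between 1 % STIM and 5 % STIM 3 were higher and 11 lower (median −0.12), where 29 % of all genes were higher and 28.4 % lower. Cenpa was at −0.74 and Ccnb1 at −0.70 there. Stimulation at 5 % O2 raised 3 of the 28, Cdk1 (0.38), Ccnb1 (0.36) and Ccna2 (0.26), and stimulation at 1 % O2 raised 1, Cenpe (0.31, SE 0.09). Of all genes, 9.44 % were called higher with stimulation at 5 % O2 and 11.5 % at 1 % O2. The count of 3 was 5 to 8 when replicate 1 or 3 of 1 % CTRL, 6 of 5 % STIM, or 1 or 2 of 1 % STIM was left out. The count of 1 was 2 to 5 without replicate 1 or 5 of 1 % CTRL or replicate 1 or 4 of 1 % STIM, and in both cases the highest count came without replicate 1 of 1 % CTRL. The interaction was lower for Cdk1 (−0.48, SE 0.10) and Ccna2 (−0.35, SE 0.10), where 5.43 % of all genes were called lower.

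**Figure D4:**
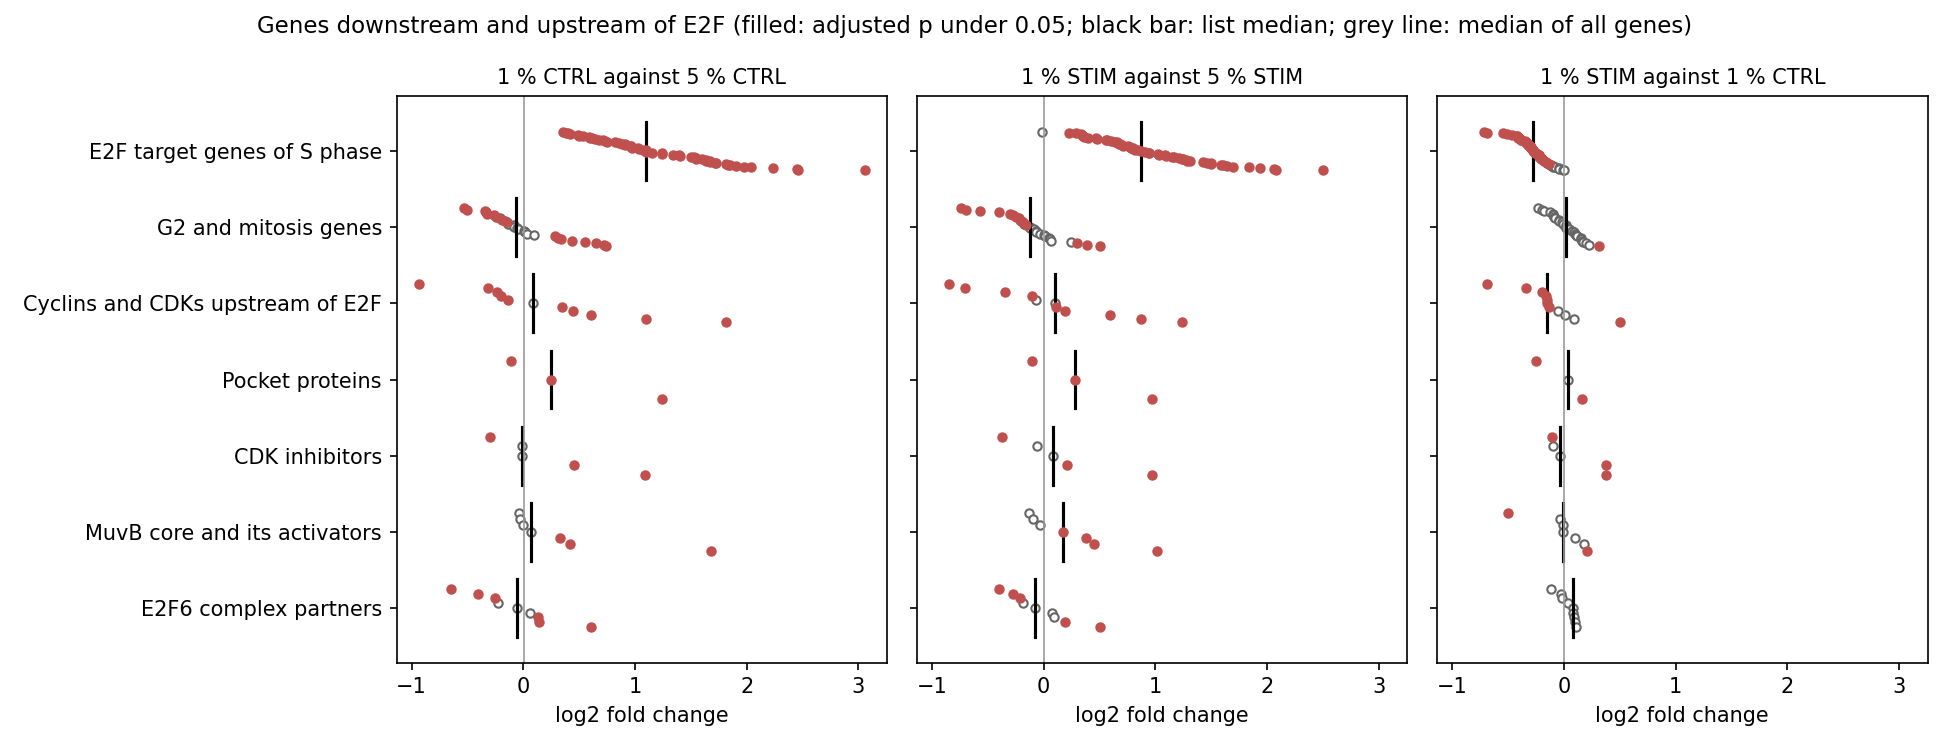
Points are genes of 7 lists (y axis) placed by log2 fold change (x axis) in 3 comparisons, filled where the adjusted p was under 0.05, with a black bar at the list median and a grey line at the median of all genes. The 57 S-phase targets all lie above 0 at 1 % O2 in resting myotubes with a median of 1.10, while the G2 and mitosis genes spread on both sides with a median of −0.07.

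Of the pocket proteins, which bind E2F proteins, Rbl1 (p107) rose with the S-phase genes. It went from 227 ± 12.7 normalized counts in 5 % CTRL to 543 ± 87.6 in 1 % CTRL, a log2 fold change of 1.24 (SE 0.08, adjusted p = 5.73e-15), and the groups did not overlap. Rbl2 (p130) rose by 0.25 (SE 0.04) and Rb1, the retinoblastoma gene, fell by 0.12 (SE 0.04, adjusted p = 0.0141). In 1 % STIM against 5 % STIM these values were 0.97, 0.28 and −0.10, and all 3 passed. Stimulation at 1 % O2 gave −0.25 for Rbl1 (adjusted p = 0.0223) and 0.16 for Rbl2 (adjusted p = 0.00587), and without replicate 1 of 1 % CTRL 0 of the 3 were called lower.

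Upstream of the pocket proteins, 5 of 11 cyclin, kinase and activator genes rose and 5 fell in 1 % CTRL against 5 % CTRL. The background for the counts in this comparison is 29.4 % of all genes higher and 30.5 % lower. The cyclin E genes Ccne2 (1.81, SE 0.09) and Ccne1 (1.10, SE 0.09), which are themselves on the list of targets, rose most, and Myc, which drives growth and S-phase entry, went from 2029 ± 158 to 1061 ± 94.8 normalized counts (−0.94, SE 0.08). The G1 cyclin gene Ccnd1 gave −0.14 (SE 0.04, adjusted p = 0.00966). Of the CDK inhibitors 5 of 7 were tested, and 2 rose and 1 fell. The others, Cdkn2a and Cdkn2b, had 0 normalized counts in every library of the 4 groups. Cdkn1b (p27), which restrains CDK2, went from 754 ± 34.2 to 1603 ± 71.8 normalized counts (1.09, SE 0.04, adjusted p = 3.63e-21). Cdkn2d rose by 0.45 (SE 0.09) and Cdkn1c fell by 0.29 (SE 0.12, adjusted p = 0.0399), and without replicate 1 of 1 % CTRL 0 inhibitors were called lower. Cdkn1a (p21), which is induced when myoblasts leave the cell cycle, stood at 37856 ± 1247 normalized counts in 5 % CTRL and gave −0.01 (SE 0.03, adjusted p = 0.748). Stimulation raised Cdkn1b by 0.49 at 5 % O2 and by 0.37 at 1 % O2.

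Of the MuvB core and its activators, which together with E2F4 or B-Myb control the cell cycle genes, 3 of 7 rose and 0 fell. Mybl2 (B-Myb), itself an E2F target, went from 84.4 ± 18.4 to 268 ± 25.03 normalized counts (1.68, SE 0.12, adjusted p = 2.68e-13), and Lin54 (0.42, SE 0.06) and Lin9 (0.33, SE 0.08) followed. Foxm1, the activator of G2 and mitosis genes, gave −0.04 (SE 0.08, adjusted p = 0.707). Among 9 partners of E2F6 complexes 3 rose and 3 fell, with Mga at −0.65, Cbx3 at 0.61 and Wdr5 at −0.41. The background for each of these counts is the 29.4 % of all genes higher and 30.5 % lower in this comparison.

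Of the myotube markers, 1 rose and 7 fell of 14 in 1 % CTRL against 5 % CTRL, led by Myog (−0.66, SE 0.04), Myh3 (−0.40, SE 0.03) and Myh8 (−0.40, SE 0.09). Of 10 markers of myoblasts and undifferentiated cells 3 rose and 3 fell, led by Id3 (−1.22, SE 0.28), Id1 (−0.81, SE 0.29) and Hey1 (0.72, SE 0.10), and their summed normalized count had a median of 21383 in 5 % CTRL (19583 to 21544) and 20392 in 1 % CTRL (19018 to 20612). Of all genes tested, 29.4 % were called higher and 30.5 % lower in this comparison, near the shares for the 10 undifferentiated-cell markers. The part of the myotube and undifferentiated-cell markers in the changes of the E2f genes was not tested.

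The genes whose profile over the 24 libraries was most like that of a member were found by Pearson correlation of log2 values among genes with a mean normalized count of at least 100. These values are descriptions, since the 24 points share 4 group means and many genes follow them. For E2f1 the nearest were Asf1b, a histone chaperone gene of the S-phase list (r = 0.98), Fam117b (r = 0.98) and Itpk1 (r = 0.98), and 612 genes reached 0.9. For E2f2 they were Sema7a, Ccn1 and Arl4c (r = 0.99 each), with 510 genes at 0.9 or more. For Tfdp1 they were Gm4737, Ska2 and Ssrp1 (r = 0.98 each). For E2f8 they were Ubp1, Kif5c and Iars (r = 0.95, 0.95 and 0.94), and for Tfdp2 Arhgap12, Eya4 and Usp53 (r = 0.95, 0.95 and 0.94). E2f4 was nearest to Stn1, Tubb6 and Tuba4a (r = 0.95, 0.94 and 0.93) and E2f3 to Dedd2, Sc5d and Smad3 (r = 0.91, 0.90 and 0.90). E2f7 was less like any other gene, with Itgb6 (r = 0.85), the kinetochore gene Ndc80 (r = 0.84) and the mitotic kinase gene Melk (r = 0.83) nearest and 0 genes at 0.9.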

How the data were processed

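Bulk mRNA of 24 C2C12 cultures was sequenced, and groups follow the labels of the samples. Per the labels and the study's methods, reads were aligned to GRCm38 with STAR 2.5.4b and counted per gene with RSEM 1.3.0 at default parameters. Whether strand was used in counting is not given in the sources used here. The authors deposited a signal per gene, made by dividing its count by a size factor from DESeq2. A second deposited table holds the authors' own comparisons and was not used.

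The steps between values gave back the reads of each library, and 100 % of the values came out whole within 0.1 of a read. Size factors were 0.955 to 0.992 at 5 % O2 and 1.02 to 1.05 at 1 % O2. Replicates differed by more than the sampling noise (chi-square per gene of at least 2.54). Genes that reached 10 normalized counts in 6 or more libraries entered 1 limma fit (3.58.1, R 4.3.3; lmFit, contrasts.fit, eBayes with trend and robust) of log2(normalized count + 1) over the 4 groups, with Benjamini-Hochberg adjustment over all genes tested and a threshold of 0.05. The fit was tested on simulated data. Intervals (95 %) are normal ones from the standard errors. Exon lengths and overlaps came from GENCODE M21.

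The members and the 9 lists of other genes were chosen with earlier results of these data known. Named were all members, the dividing-cell markers and 3 genes most like each called member. Up to 3 called genes of each list with the largest change in a comparison were also named. A few genes were singled out after their values were seen (Rpa3, Cdkn1a, Cdkn2a, Cdkn2b, Foxm1, Mki67, Ccnd1, and Ccnb1 and Cenpa in resting myotubes). Alternatives were a threshold of 0.01, libraries scaled to 1 common total, a pseudocount of 10, the unfiltered table, a block for replicate number, a fit of the 2 groups compared, a correction for exon length, edgeR 4.0.16 quasi-likelihood, DESeq2 1.42.0 and limma voom on whole reads, and leaving out each library.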

Additional observations from a re-analysis of the deposited data

Results flagged for a closer look

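Of the 40 combinations of member and group, 4 had a library separated from the other 5 by more than Dixon's 95 % critical value for 6 samples, where chance flags about 1 in 20. They were replicate 1 of 1 % CTRL for E2f1 (902.9 normalized counts, the highest of its group), replicate 1 of 5 % CTRL for E2f2 (6402, the highest), replicate 1 of 5 % STIM for E2f4 (1376, the lowest) and replicate 5 of 5 % STIM for E2f6 (1319, the highest).

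The interaction term of limma, which compares the response to O2 in resting and stimulated myotubes, was called for 3 members. Of all genes, 5.88 % were called higher and 5.43 % lower by this term. It was −0.37 on the log2 scale for E2f1 (adjusted p = 0.00821), 0.17 for E2f6 (adjusted p = 0.0246) and 0.14 for E2f2 (adjusted p = 0.0431). Leaving out any 1 of 13 libraries took away the call of E2f2, and any 1 of 2 libraries that of E2f6. At an adjusted p under 0.01 only the call of E2f1 remained. E2f1 rose by 1.09 in resting and 0.72 in stimulated myotubes, and E2f2 gave −1.05 and −0.91.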

How the results depend on the processing

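The rise of E2f1, E2f3, Tfdp1 and Tfdp2 and the fall of E2f2, E2f4 and E2f8 under 1 % O2 kept their direction and passed the test under every alternative run, in resting and stimulated myotubes, and so did the rise of E2f7 in resting myotubes. All 57 S-phase targets were called in resting myotubes and 56 in stimulated ones under every alternative. At an adjusted p under 0.01, members called numbered 3 in place of 6 for stimulation at 1 % O2 and 1 in place of 3 for the interaction, where no filter also left 1, and the targets called in the interaction numbered 6 in place of 12. Of the targets, 3 were called for stimulation at 5 % O2, against 6 in the fit of the compared groups alone and 5 with the exon-length trend removed. Leaving out single libraries gave 1 to 4 members for the interaction (1 without replicate 2 of 5 % CTRL), 3 to 8 targets for stimulation at 5 % O2 and 11 to 21 targets for the interaction. With a replicate block 6 targets were called for stimulation at 5 % O2, and the block changed no call of a member. The labels do not say whether the replicate numbers pair the libraries. Correlations of same-numbered libraries lay between −0.15 and 0.15, and 7 of 24 libraries were most like a library of their own number. Small correlations do not settle whether libraries were handled in sets.

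Directions reversed only for values that had not passed the test. Scaling all libraries to 1 common total, which moved the median of all genes to 0.08 for O2 in resting myotubes, put E2f6 at 0.018 there, E2f1 at 0.0048 for stimulation at 5 % O2 and E2f5 at −0.0062 for the interaction. Over single libraries left out, values that changed sign ranged from −0.062 to 0.0035 for E2f1 and from −0.020 to 0.030 for E2f8 (both stimulation at 5 % O2), from −0.0030 to 0.081 for E2f7 (O2 in stimulated myotubes) and from −0.039 to 0.043 for E2f5 (interaction). The interaction of E2f2 missed the threshold under 4 further alternatives: rescaled libraries (adjusted p = 0.0747), no filter (0.0827), edgeR (0.0514) and limma voom (0.0549). That of E2f7 passed with edgeR (0.0435), DESeq2 (0.0325) and the length correction (0.0251). The causes were not tested.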
